A study of Mus musculus with 35 samples.

Results

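The classical complement genes described here were 8 of the 25655 genes listed in each of 8 comparison tables deposited for whole mouse retina. They were taken by gene symbol: C1qa, C1qb, C1qc, C1ra, C1s1, C2, C4b and Serping1. Each was present in all 8 tables with an adjusted p-value. The study measured poly(A) RNA of retinas from wild-type mice with and without diabetes, before, during and after the removal of microglia. Its 35 samples fell into 7 groups. Non-diabetic retinas were sampled after 2 weeks of depletion and 2 weeks of recovery (ND repopulated, n = 5) or without depletion (ND, n = 6). Diabetic retinas were sampled at 6 weeks (D6, n = 5), at 8 weeks after 2 weeks of depletion (D8 depleted, n = 4) or without it (D8, n = 5), and at 10 weeks after 2 weeks of depletion and 2 weeks of recovery (D10 repopulated, n = 5) or without it (D10, n = 5). The sample labels name the depleting agent DTx, whereas the study's design text names PLX-5622, an inhibitor of the CSF1 receptor on which microglia depend. The agent is therefore called depletion throughout. D8 and D10 labels add PBS, which the ND and D6 labels do not. Every group carries the wild-type genotype label. How diabetes was induced, the animals' age and whether each sample was a separate animal are not stated in these sources, so p-values measure only the spread between samples, which may be technical.

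Classical complement begins when C1q, a protein built of A, B and C chains, binds antibody, pentraxins or the surface of damaged cells. The proteases C1r and C1s travel with C1q. C1r then activates C1s, which cuts C4 and C2, whose fragments form the enzyme that cuts C3. C1 inhibitor, the product of Serping1, stops C1r and C1s. In brain and retina C1q is made chiefly by microglia and marks synapses and debris for uptake, while the other components can be made by several cell types.

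In the deposited coordinates (GRCm39, per the labels) the 3 C1q genes lie side by side on the minus strand of chromosome 4, C1qb at chr4:136607440-136613498, C1qc at chr4:136617115-136620376 and C1qa at chr4:136623228-136626114. The gap between C1qc and C1qa is 2851 bases and that between C1qb and C1qc is 3616 bases. The protease genes are neighbours on opposite strands of chromosome 6, C1ra at chr6:124489364-124500402 on the plus strand and C1s1 at chr6:124507304-124519318 on the minus strand. C2 (chr17:35081580-35117241) and C4b (chr17:34947354-34962856) lie on the minus strand of chromosome 17. C2 overlaps Gm20547 on its own strand and Zbtb12 on the other, and ends 85 bases from Cfb, which is on the same strand. Serping1 is at chr2:84595731-84605788, minus strand. The libraries kept strand, but whether the counting used it is not given in the sources used here. C4a, the near-identical copy of C4b, was looked up and had no entry under that symbol, so reads of the pair could have been counted under C4b.

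Promoters are shown for the C1q chains and the proteases because the C1q chains fell when microglia were removed and the proteases were not called lower. RefSeq promoter entries (GRCm38.p6) matched 4 of the 8 genes, C1qb, C1qc, C1ra and C1s1. The 250 bases before the start are given 5′ to 3′ on the gene's strand, at chr4:136886201-136886450 (C1qb, minus), chr4:136892915-136893164 (C1qc, minus), chr6:124512371-124512620 (C1ra, plus) and chr6:124542322-124542571 (C1s1, minus, the more downstream of its 2 listed starts). Capitals mark matches, on either strand, to GAGGAA, the core of sites for PU.1, the master transcription factor of myeloid cells.
C1qb: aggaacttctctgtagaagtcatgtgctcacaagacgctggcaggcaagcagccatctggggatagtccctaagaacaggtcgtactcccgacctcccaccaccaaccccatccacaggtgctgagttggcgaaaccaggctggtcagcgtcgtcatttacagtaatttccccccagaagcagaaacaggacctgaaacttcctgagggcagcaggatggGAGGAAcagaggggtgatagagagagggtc
C1qc: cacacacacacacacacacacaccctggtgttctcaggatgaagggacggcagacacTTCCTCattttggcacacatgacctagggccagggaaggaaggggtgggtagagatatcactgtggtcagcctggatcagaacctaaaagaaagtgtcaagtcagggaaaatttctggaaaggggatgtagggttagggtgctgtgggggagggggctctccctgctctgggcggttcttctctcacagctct
C1ra: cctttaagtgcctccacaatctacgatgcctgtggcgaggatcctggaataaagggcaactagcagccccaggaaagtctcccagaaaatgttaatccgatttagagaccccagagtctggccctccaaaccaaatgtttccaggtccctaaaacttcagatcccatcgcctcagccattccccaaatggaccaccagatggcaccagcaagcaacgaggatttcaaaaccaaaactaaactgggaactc
C1s1: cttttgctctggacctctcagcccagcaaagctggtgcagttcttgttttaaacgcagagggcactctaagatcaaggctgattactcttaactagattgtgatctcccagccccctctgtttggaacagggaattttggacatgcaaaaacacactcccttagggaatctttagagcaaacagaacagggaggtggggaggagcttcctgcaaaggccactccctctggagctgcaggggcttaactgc
The C1qb match begins 30 bases before the start. The C1qc match begins 193 bases before it and reads TTCCTC, the motif on the opposite strand. These letters were found in 23.3% of 32851 promoters of the same length, so a match is a description only. Neither the STAT pattern TTCNNNGAA (7.02% of all promoters), the interferon response pattern GAAANNGAA (7.13%) nor the NF-kB pattern GGGNNTTTC (3.72%) was found in any of these windows.

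The deposited tables hold no values per sample, so each group is described by its mean as the authors gave it, in a unit that is not stated. A table lists only the larger of its 2 group means. Where a group was the lower one in every table, only an upper bound is known. C1qa averaged 4.60 in ND, 6.25 in D6, 7.71 in D8 and 9.16 in D10 retinas in the authors' deposited tables. Its mean was at most 4.60 in D8 depleted, D10 repopulated and ND repopulated retinas. C1qb averaged 4.05 in ND, 6.29 in D6, 7.60 in D8 and 8.42 in D10 retinas in the authors' deposited tables, was 4.59 in ND repopulated retinas, and was at most 4.05 in D8 depleted and D10 repopulated retinas. The means of C1qc in the authors' deposited tables were 3.07 in ND, 4.29 in D6, 4.91 in D8 and 5.57 in D10 retinas, 3.25 in ND repopulated retinas, and at most 3.07 in D8 depleted and D10 repopulated retinas. All 3 chains therefore stood highest in diabetic retinas whose microglia had not been removed, in the order D6, D8, D10.

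The proteases, C4b and the inhibitor had another order. C1ra, the mouse C1r protease, averaged 2.99 in D6, 2.58 in D8 and 7.01 in D10 retinas in the authors' deposited tables, and at most 0.375 in ND. It averaged 3.27 in D8 depleted and 3.90 in D10 repopulated retinas. C1s1, the C1s protease, averaged 1.90 in D6, 1.50 in D8, 3.53 in D10, 2.24 in D8 depleted and 2.10 in D10 repopulated retinas in the authors' deposited tables, and at most 0.629 in ND. For both proteases the deposited mean of D8 depleted retinas stood above that of D8 retinas, and the D10 mean stood above those of all other groups. C4b, the C4 component itself, averaged 5.63 in D6, 4.87 in D8, 9.46 in D10, 8.23 in D8 depleted and 6.30 in D10 repopulated retinas in the authors' deposited tables, and at most 1.92 in ND. Serping1 averaged 5.66 in D6, 5.43 in D8, 9.60 in D10, 7.03 in D8 depleted and 6.45 in D10 repopulated retinas in the authors' deposited tables, and at most 3.13 in ND. C2, which supplies the catalytic part of the C3-cutting enzyme, averaged 0.638 in ND, 1.01 in D6, at most 0.638 in D8, 1.30 in D10, 1.22 in D8 depleted and 0.884 in D10 repopulated retinas in the authors' deposited tables. For C1ra, C1s1, C4b and Serping1 the ND bound is the larger of the ND repopulated and ND means. It therefore bounds both groups and does not order them. The C2 mean of ND repopulated retinas was at most the ND mean of 0.638.

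**Figure D1:**
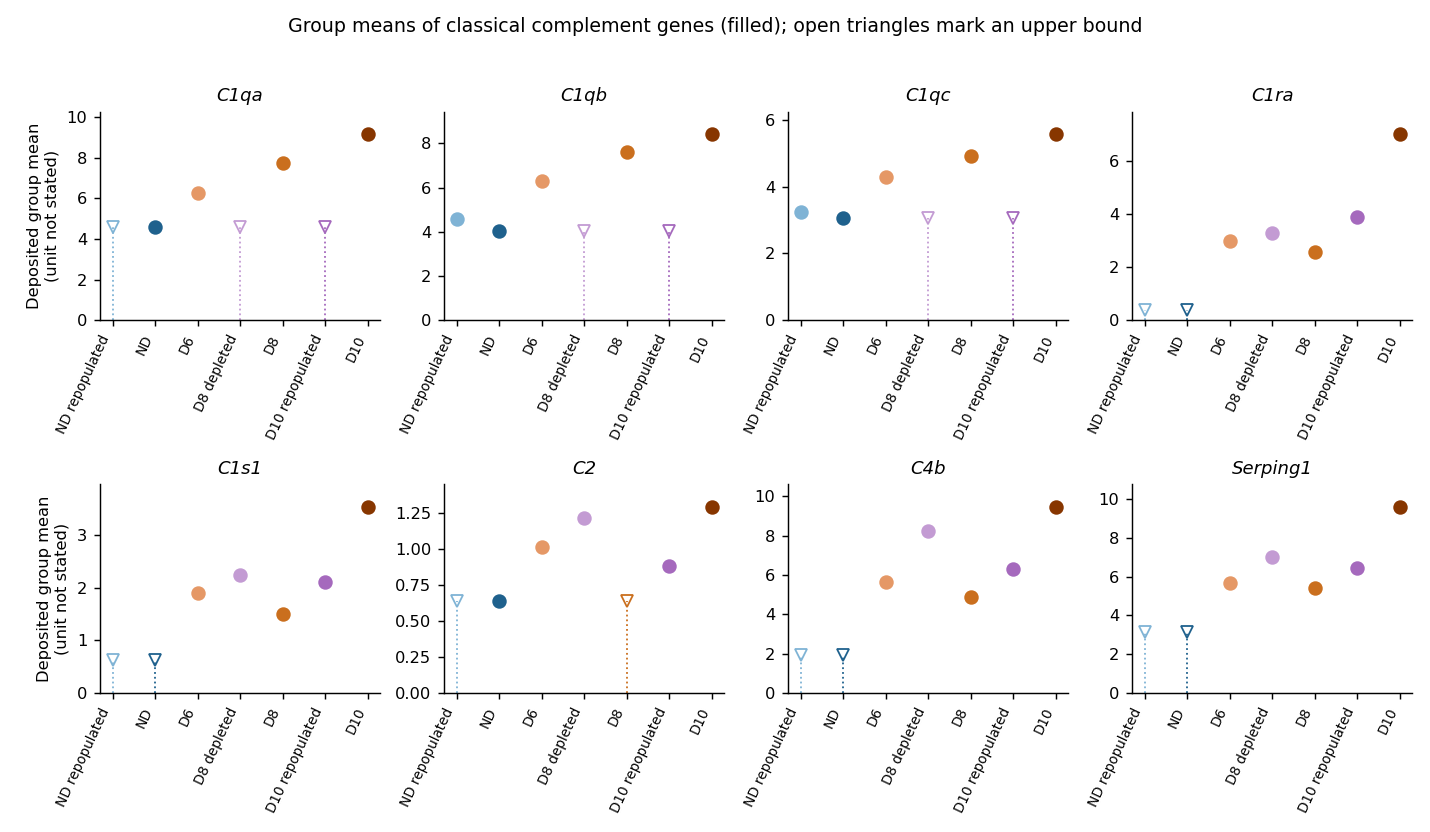
Deposited group means of the 8 genes, 1 panel per gene with its own axis from 0, in a unit the authors do not state. Filled circles are means and open triangles with dotted lines are upper bounds; the C1q chains have only upper bounds in D8 depleted and D10 repopulated retinas, whereas C1ra, C1s1, C4b and Serping1 have means there above their ND bounds.

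Classical complement genes were higher in diabetic than in non-diabetic retinas whose microglia had not been removed, and at 10 weeks all 8 were. At 6 weeks 5 of the 8 genes were higher than in ND at a deposited adjusted p below 0.05, and none was lower, against 14.1% of all tested genes called higher (2520 of 17876). At 8 weeks 5 were higher and none lower, against 2.33% of all genes (407 of 17495). At 10 weeks all 8 were higher, against 5.59% of all genes (968 of 17317). The eighth call, C2, is lost when the median of all genes is taken off (adjusted p = 0.051, from the authors' deposited table), which leaves 7. The median log2 fold change of the 8 genes was 0.86 at 6 weeks, 0.88 at 8 weeks and 1.38 at 10 weeks, where the median of all tested genes was 0.04, 0.00 and 0.00.

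C1ra showed the greatest change of the 8 at every time. Its log2 fold change over ND in the authors' deposited tables was 3.12 ± 0.45 at 6 weeks (adjusted p = 7.3e-10), 2.86 ± 0.45 at 8 weeks (adjusted p = 6.8e-08) and 4.31 ± 0.44 at 10 weeks (adjusted p = 5.0e-19). The error given with each log2 value is the standard error implied by that value and its deposited p-value. At 10 weeks C1ra was 19.8-fold higher than in ND retinas. C1s1, its partner protease, was higher than in ND by 1.62 ± 0.38 at 6 weeks (adjusted p = 0.00039), 1.22 ± 0.38 at 8 weeks (adjusted p = 0.048) and 2.47 ± 0.38 at 10 weeks (adjusted p = 8.0e-09) in the authors' deposited tables. C4b was higher by 1.60 ± 0.27 at 6 weeks (adjusted p = 5.0e-07), 1.32 ± 0.27 at 8 weeks (adjusted p = 0.00022) and 2.29 ± 0.27 at 10 weeks (adjusted p = 3.3e-14) in the authors' deposited tables. C1ra, C1s1 and C4b were thus higher than in ND at all 3 times.

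The C1q chains changed less. C1qb was higher than in ND by 0.67 ± 0.21 at 6 weeks (adjusted p = 0.0084), 0.88 ± 0.20 at 8 weeks (adjusted p = 0.0014) and 1.04 ± 0.20 at 10 weeks (adjusted p = 1.8e-05) in the authors' deposited tables. For C1qa the log2 fold changes in the authors' deposited tables were 0.47 ± 0.20 (adjusted p = 0.063), 0.72 ± 0.20 (adjusted p = 0.012) and 0.98 ± 0.19 (adjusted p = 2.2e-05) at 6, 8 and 10 weeks. For C1qc they were 0.51 ± 0.21 (adjusted p = 0.060), 0.65 ± 0.21 (adjusted p = 0.064) and 0.84 ± 0.21 (adjusted p = 0.0016) in the authors' deposited tables. At 10 weeks the chains were 1.97-fold (C1qa), 2.05-fold (C1qb) and 1.80-fold (C1qc) higher than in ND retinas. Serping1, which restrains C1r and C1s, was higher by 1.00 ± 0.29 at 6 weeks (adjusted p = 0.0049) and 1.72 ± 0.29 at 10 weeks (adjusted p = 2.0e-07) in the authors' deposited tables, and by 0.88 ± 0.29 at 8 weeks, where it missed the threshold (adjusted p = 0.070). C2 passed at 10 weeks alone, with 1.00 ± 0.34 (adjusted p = 0.0498) in the authors' deposited table. Its log2 fold change was 0.71 ± 0.34 at 6 weeks (adjusted p = 0.12) and -0.13 ± 0.35 at 8 weeks (adjusted p = 0.95) in the authors' deposited tables.

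**Figure D2:**
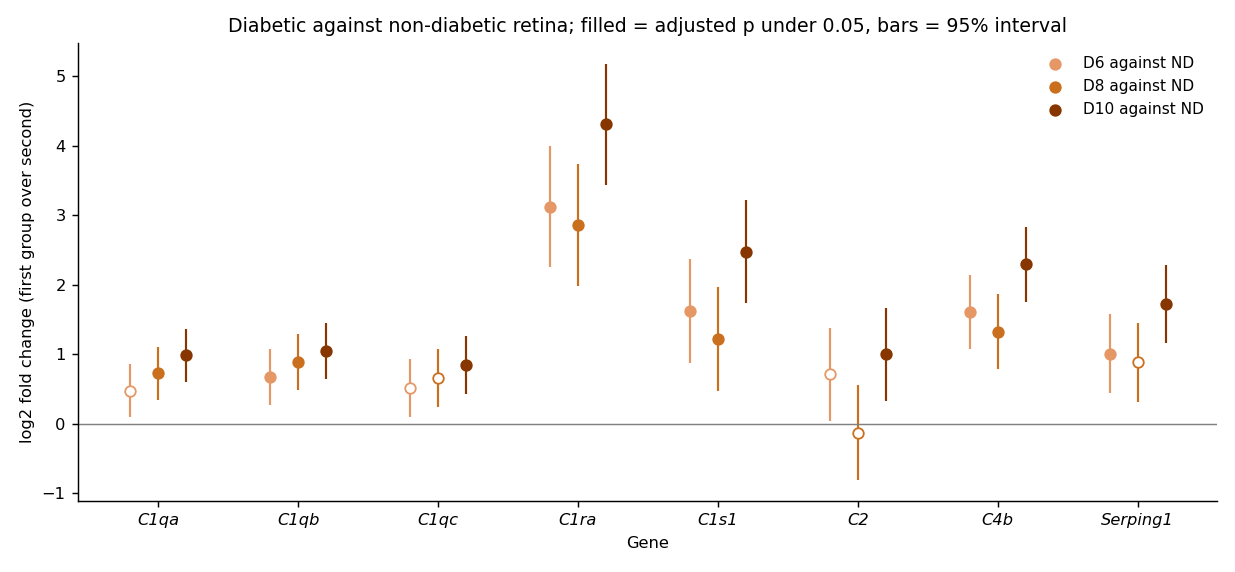
Log2 fold change of each gene in D6, D8 and D10 against ND retinas, with 95% intervals from the implied standard error; filled points passed an adjusted p of 0.05. C1ra stands highest at every time, reaching 4.31 at 10 weeks, and the 3 C1q chains lie between 0.47 and 1.04.

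The 10-week effects of C1ra, C1s1, C2, C4b and Serping1 exceeded the 8-week effects by 0.84 to 1.45 on the log2 scale and those of the C1q chains by 0.16 to 0.26. None of these differences passed after adjustment (normal test on the difference of 2 log2 fold changes in the authors' deposited tables, adjusted p = 0.9999 for each of the 8). Of 17317 genes tested this way 0 passed and 219 had an unadjusted p below 0.05. The unadjusted p of the 5 genes other than the C1q chains ran from 0.013 for C4b to 0.040 for Serping1. Both effects use the same ND samples, so the added variances overstate the error.

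In whole retina, fewer cells of a type and less RNA per cell cannot be told apart. Of 13 other microglial markers, 0 were higher and 3 (Gpr34, P2ry12 and P2ry13) lower in D6 than in ND, none passed in either direction in D8, and 0 were higher and 3 (Gpr34, P2ry12 and Fcrls) lower in D10. Their median log2 fold change was -0.78 at 6, -0.34 at 8 and -0.55 at 10 weeks. At 10 weeks the C1q chains lay at 0.84 to 1.04, above all 13 of these markers, whose highest was Aif1 at 0.74. Csf1r, the receptor on which microglia depend, had a log2 fold change of -0.0022 ± 0.22 in D10 against ND in the authors' deposited table. Of 8 monocyte and neutrophil markers, 3 were higher than in ND at 6 weeks, 0 at 8 weeks and 5 at 10 weeks. Haemoglobin and other red blood cell genes were lower than in ND in D8 (4 of 5) and D10 (5 of 5, median log2 fold change -3.36), and 5 of 6 lens genes were lower in D8. In D6 the red blood cell median was -2.03 with 1 of 5 called lower (Hbb-bs), and the lens gene Bfsp1 was higher. Gfap, the intermediate filament of astrocytes and reactive glia, was higher than in ND by 1.70 at 6 weeks, 1.10 at 8 weeks and 1.96 at 10 weeks in the authors' deposited tables, and of the other 3 astrocyte markers Aldh1l1 was higher at 6 weeks. At 6 and at 10 weeks 2 of 6 Muller glia markers (Slc1a3 and Rlbp1) and 2 of 5 pericyte markers (Cspg4 and Rgs5) were lower. Of 6 endothelial markers, Kdr and Tek were lower and Cdh5 higher at the same 2 times. None of the markers in those 3 lists passed at 8 weeks, and none of the 6 border macrophage markers passed at any of the 3 times. Titles of the D8 and D10 libraries carry numbers from one run and those of all other groups from another, so the comparisons of D8 or D10 with other groups also cross that divide, whereas D6 against ND does not. The part of these differences in the results was not tested.

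The C1q transcripts of the diabetic retina fell to a small fraction of their level on depletion, and no other gene of the 8 was called lower. In D8 depleted against D8 retinas the 3 C1q chains were the only lower genes of the 8, against 4.9% of all genes called lower (832 of 16982), and C2 was the only higher one, against 5.85% called higher (994 of 16982). C1qa was 121-fold lower in D8 depleted than in D8 retinas (log2 fold change -6.92 ± 0.57, adjusted p = 1.84e-30) in the authors' deposited table. C1qb was 125-fold lower (-6.97 ± 0.57, adjusted p = 2.96e-30) and C1qc 56.3-fold lower (-5.82 ± 0.49, adjusted p = 2.84e-28) in the authors' deposited table. By p-value they ranked 2, 3 and 4 among all 16982 genes. Of the 13 other microglial markers, 12 were lower with a median log2 fold change of -3.17, and Cx3cr1, the fractalkine receptor, was the 1 marker that fell further than all C1q chains (-6.98 ± 0.85, adjusted p = 3.04e-13 in the authors' deposited table). Of 6 markers of border macrophages, the other resident myeloid cells of the eye, F13a1 (-5.89) and Mrc1 (-3.09) were lower and Cbr2 (2.23) higher in D8 depleted retinas in the authors' deposited table.

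None of the proteases, C4b or Serping1 was called lower in D8 depleted than in D8 retinas. C4b had a log2 fold change of 0.73 ± 0.27 (adjusted p = 0.058) and C1s1 of 0.56 ± 0.39 (adjusted p = 0.37) in the authors' deposited table. C1ra had 0.31 ± 0.45 (adjusted p = 0.71) and Serping1 0.35 ± 0.24 (adjusted p = 0.37) in the authors' deposited table. The lower ends of their 95% intervals were -0.56 for C1ra, -0.20 for C1s1, 0.20 for C4b and -0.12 for Serping1. C2 was higher in D8 depleted retinas, by 1.01 ± 0.36 (adjusted p = 0.048) in the authors' deposited table. Zbtb12, which overlaps C2 on the other strand, had a log2 fold change of -0.28 in the authors' deposited table (adjusted p = 0.45). Red blood cell genes (4 of 5, median log2 fold change 2.13), the monocyte and neutrophil genes Plac8 and S100a9, and the pigment epithelium genes Ttr and Lrat were also higher in D8 depleted retinas, and 4 of 6 lens genes lower. The astrocyte gene Aldh1l1 was higher too. Lower were the Muller glia genes Slc1a3 and Aqp4, the endothelial genes Kdr and Tek, the pericyte gene Rgs5 and the rod gene Gnat1. This contrast crosses the divide in library numbers, and the part of these differences was not tested.

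Against non-diabetic retina the C1q chains were again lower and 4 of the other genes higher, in a comparison that does not cross that divide. In D8 depleted against ND retinas 7 of the 8 genes were called in either direction, against 28.5% of all genes (5152 of 18102). The 3 C1q chains were lower, beside 2352 genes called lower in all, and 4 of the 8 genes were higher, beside 2800 genes called higher in all. C1qa was 73.2-fold, C1qb 67.5-fold and C1qc 35.6-fold lower in D8 depleted than in ND retinas in the authors' deposited table, with adjusted p-values of 5.9e-27, 5.6e-26 and 1.1e-26. In the authors' deposited table C1ra was higher by 3.18 ± 0.47 (adjusted p = 3.3e-09), C1s1 by 1.79 ± 0.40 (adjusted p = 0.00015), C4b by 2.05 ± 0.29 (adjusted p = 5.4e-10) and Serping1 by 1.24 ± 0.31 (adjusted p = 0.00063). C2 had 0.88 ± 0.36 and missed the threshold (adjusted p = 0.053 in the authors' deposited table). In the same comparison 12 of 13 microglial markers were lower (median log2 fold change -3.44), all 6 lens genes were lower (median -8.98) and 4 of 8 monocyte and neutrophil markers were higher (median 2.21). Of 6 border macrophage markers 3 were lower and 1 higher. Gfap (1.75) and Aldh1l1 (1.04) were higher in the authors' deposited table, as were the pigment epithelium genes Ttr and Best1, and 3 of 6 Muller glia markers were lower. Their part in the result was not tested.

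**Figure D3:**
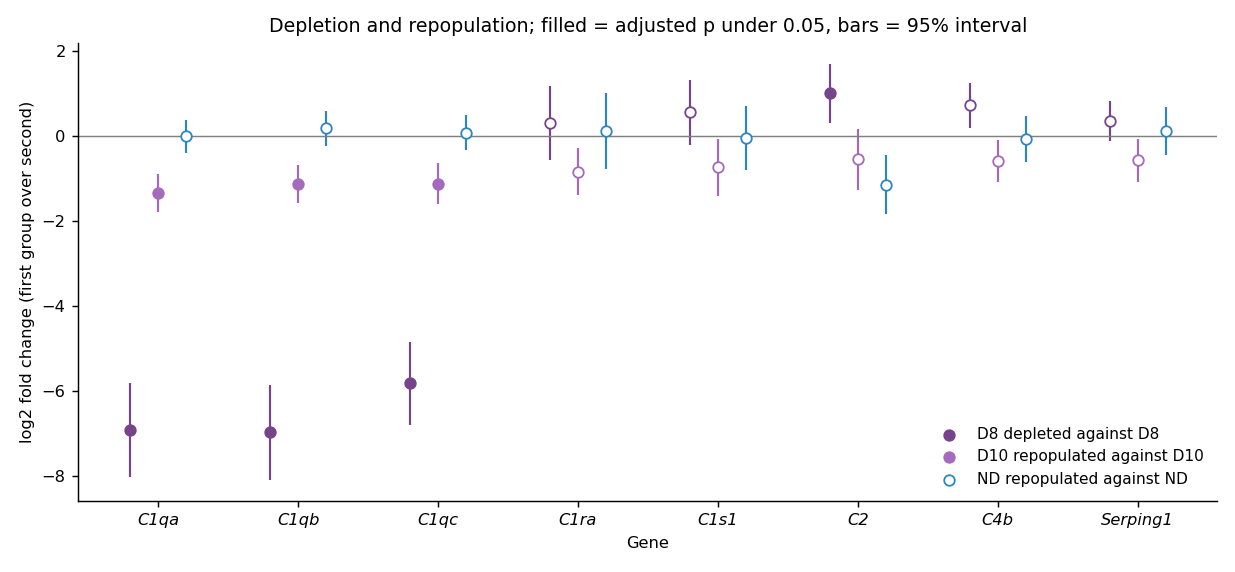
Log2 fold change of each gene on depletion (D8 depleted against D8) and after repopulation (D10 repopulated against D10, ND repopulated against ND), with 95% intervals from the implied standard error; filled points passed an adjusted p of 0.05. The C1q chains lie near -6 to -7 on depletion and at -1.12 to -1.34 in D10 repopulated retinas, and within 0.18 of 0 in ND repopulated retinas.

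After 2 weeks of recovery the C1q chains in diabetic retina were below their level in D10 retinas and not distinguished from ND retinas. In D10 repopulated against D10 retinas 3 of the 8 genes were lower, all of them C1q chains, and 0 higher, where 0.267% of all genes were called lower (45 of 16826). C1qa was 2.53-fold lower (log2 fold change -1.34 ± 0.23, adjusted p = 2.21e-05) in the authors' deposited table. C1qb was 2.18-fold lower (-1.12 ± 0.23, adjusted p = 0.00061) and C1qc 2.17-fold lower (-1.12 ± 0.24, adjusted p = 0.0033) in the authors' deposited table. By p-value they ranked 3, 8 and 12 among genes with lower values in D10 repopulated retinas. Values of the other 5 genes ran from -0.55 for C2 to -0.83 for C1ra, and none passed (adjusted p from 0.20 to 0.88). The 95% intervals of C1ra (-1.38 to -0.29), C1s1 (-1.40 to -0.07), C4b (-1.08 to -0.08) and Serping1 (-1.07 to -0.07) nevertheless lay below 0. That of C2 (-1.27 to 0.17) did not. The missed threshold therefore does not show that the lower values were confined to the C1q chains. Among the 13 microglial markers Cx3cr1 alone was lower (-1.96 ± 0.32, adjusted p = 5.9e-06 in the authors' deposited table), with a median of -0.74 and a range of -1.96 to 2.01 over the list. Red blood cell genes (4 of 5, median log2 fold change 3.81) and the pigment epithelium genes Ttr and Rpe65 were higher in D10 repopulated retinas, and this contrast crosses the divide in library numbers. The part of these differences in the result was not tested.

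Against ND retinas none of the C1q chains passed in D10 repopulated retinas. Their log2 fold changes were -0.35 ± 0.20 for C1qa (95% interval -0.75 to 0.04), -0.08 ± 0.21 for C1qb (-0.49 to 0.33) and -0.27 ± 0.22 for C1qc (-0.69 to 0.15) in the authors' deposited table. Those intervals still allow a C1qa level below that of ND retinas. Meanwhile 9 of the 13 microglial markers were lower than in ND, with a median of -1.61, and all 3 C1q chains lay above 10 of them. The 4 genes C1ra, C1s1, C4b and Serping1 were higher in D10 repopulated than in ND retinas, against 7.49% of all genes (1311 of 17495). C1ra was higher by 3.48 ± 0.45 (adjusted p = 1.75e-12), C1s1 by 1.74 ± 0.38 (adjusted p = 0.00016), C4b by 1.71 ± 0.27 (adjusted p = 5.0e-08) and Serping1 by 1.15 ± 0.29 (adjusted p = 0.0015) in the authors' deposited table. C2 had 0.46 ± 0.34 (adjusted p = 0.43) in the authors' deposited table. In the same comparison 4 of 8 monocyte and neutrophil markers were higher (Chil3, S100a9, S100a8 and Ly6c2, list median 2.05), as were Gfap (2.06) and Aldh1l1 (0.70) in the authors' deposited table. The pigment epithelium genes Lrat and Ttr, the lymphocyte gene Cd8a, the border macrophage gene Cbr2 and the endothelial gene Cdh5 were also higher, and the endothelial genes Kdr and Tek lower. The part of these differences in the result was not tested.

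After recovery in non-diabetic retina no classical complement gene passed. In ND repopulated against ND retinas 0 of the 8 genes passed, and 0.156% of all genes did (24 of 15402). The C1q chains had log2 fold changes of 0.00 ± 0.20 for C1qa, 0.18 ± 0.21 for C1qb and 0.09 ± 0.21 for C1qc in the authors' deposited table, and the microglial markers had a median of 0.13 with 0 of 13 called. C1ra, C1s1, C4b and Serping1 ran from -0.07 to 0.12. C2 alone of the 8 genes had an unadjusted p below 0.05, with -1.14 ± 0.36 (p = 0.0015, adjusted p = 0.43) in the authors' deposited table.

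The difference in C1qa and C1qb between retinas depleted and then repopulated and retinas never depleted was not the same in diabetic and non-diabetic mice. It is the net of depletion and recovery, and no depleted non-diabetic group without recovery was analysed here. Of the groups compared, D10 alone has library numbers from the other run and PBS in its label, whose part was not tested. Computed from the authors' deposited tables, the effect in D10 repopulated against D10 minus that in ND repopulated against ND, which share no samples, was -1.34 ± 0.30 for C1qa (adjusted p = 0.0082) and -1.31 ± 0.31 for C1qb (adjusted p = 0.014), in a normal test over 15400 genes of which 0.11% were called lower (17 genes). For C1qc it was -1.21 ± 0.32 and did not pass (adjusted p = 0.087, from the authors' deposited tables). None of the other 5 genes passed, with differences of -0.95 to 0.59. The C1q difference from undepleted diabetic retina was smaller after recovery at 10 weeks than during depletion at 8 weeks. From the authors' deposited tables, D10 repopulated against D10 minus D8 depleted against D8 gave 5.58 ± 0.61 for C1qa, 5.84 ± 0.62 for C1qb and 4.70 ± 0.55 for C1qc (adjusted p = 5.3e-16, 3.8e-17 and 9.6e-14), with 0.288% of 16672 genes called higher. None of the other 5 passed. C4b came nearest at -1.31 ± 0.37 (adjusted p = 0.057, from the authors' deposited tables).

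Through their separate comparisons with ND in the authors' deposited tables, D10 repopulated retinas held 5.84 ± 0.57 more C1qa, 6.00 ± 0.58 more C1qb and 4.88 ± 0.50 more C1qc on the log2 scale than D8 depleted retinas (adjusted p = 1.0e-20, 4.8e-21 and 5.8e-19), with 0.857% of 17495 genes called higher. The other 5 genes differed by -0.42 to 0.30 and none passed. Between the recovered groups it was the other genes that differed. Relative to ND repopulated retinas, and again through the authors' deposited comparisons with ND, D10 repopulated retinas were higher in C1ra by 3.37 ± 0.64 (adjusted p = 3.4e-05), in C4b by 1.78 ± 0.39 (adjusted p = 0.00062), in C1s1 by 1.79 ± 0.54 (adjusted p = 0.034) and in C2 by 1.60 ± 0.50 (adjusted p = 0.042), with 2.64% of 15402 genes called higher. The C2 difference joins 0.46 in D10 repopulated and -1.14 in ND repopulated retinas, each against ND, and neither of those passed. Serping1 differed by 1.03 ± 0.41 (adjusted p = 0.17, from the authors' deposited tables). The C1q chains differed by -0.36 to -0.26, none of which passed. Both differences rest on shared ND samples, so the added variances overstate their error.

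**Figure D4:**
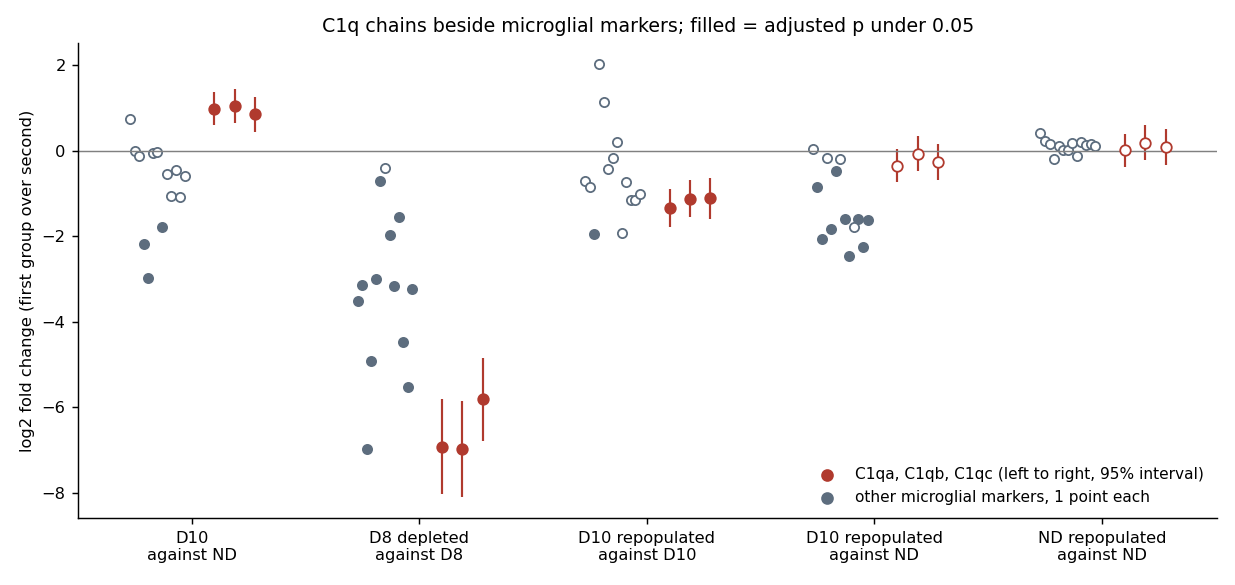
Log2 fold changes of C1qa, C1qb and C1qc (red, with 95% intervals) beside 13 other microglial markers (grey, 1 point each) in 5 comparisons; filled points passed an adjusted p of 0.05. The chains lie above all 13 markers in D10 against ND, below 12 of 13 in D8 depleted against D8, and above 10 of 13 in D10 repopulated against ND.

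The rest of the complement system was read from fixed lists. Among 14 other starters of the classical and lectin pathways, Ptx3, a pentraxin that can bind C1q, was higher than in ND at 6, 8 and 10 weeks (log2 fold change 3.17, 2.17 and 3.09 in the authors' deposited tables), and was the only one of the 14 called at 8 or 10 weeks. It was also higher in D10 repopulated than in D10 retinas, by 1.51 ± 0.39 (adjusted p = 0.029) in the authors' deposited table. Colec11, a collectin of the lectin pathway, was higher in D8 depleted than in D8 retinas by 1.69 ± 0.48 (adjusted p = 0.0092) in the authors' deposited table. Against ND it was called higher in D8 depleted retinas (1.94) and also in D6 retinas (1.71), which were never depleted. It was not called in D8 (0.24) or D10 (0.50) retinas against ND in the authors' deposited tables. The contrast of D8 depleted with D8 retinas crosses the divide in library numbers, whose part was not tested. Of 7 genes of C3 and the alternative pathway, C3 and Cfb, the factor B gene next to C2, were the 2 called higher in every comparison of diabetic with ND retinas. Cfb was higher than in ND by 6.65 ± 0.70 at 6 weeks, 6.03 ± 0.70 at 8 weeks and 7.57 ± 0.70 at 10 weeks in the authors' deposited tables. C3 was higher by 4.15 ± 0.63, 4.24 ± 0.63 and 5.73 ± 0.63 at the same times. Neither passed on depletion (Cfb 0.29, C3 -0.49) or in D10 repopulated against D10 retinas (Cfb -0.60, C3 -1.38) in the authors' deposited tables.

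Of 13 complement receptor genes 1 was higher at 6 weeks, 3 at 8 weeks and 5 at 10 weeks than in ND, beside the 14.1%, 2.33% and 5.59% of all genes called higher at those times. At 6 weeks 1 was lower, Calr, which codes for a chaperone that can bind C1q on the cell surface, at -0.60 (adjusted p = 0.0099) in the authors' deposited table. At 10 weeks C5ar1, the C5a receptor, stood at 3.54 ± 0.58 and Itgam, the alpha chain of complement receptor 3, at 1.97 ± 0.34 in the authors' deposited table. In D8 depleted against D8 retinas 0 were higher and 4 lower. C3ar1, the C3a receptor, had -4.54 ± 0.82 (adjusted p = 8.03e-06) and Calr -0.66 (adjusted p = 0.00028) in the authors' deposited table. In D10 repopulated against D10 retinas Itgam was the only one called, at -1.28 ± 0.28 (adjusted p = 0.0033) in the authors' deposited table. Of the 4 to 6 terminal pathway genes tested, none passed in D6, D8 or D10 against ND, in D8 depleted against D8 or in D10 repopulated against D10 retinas. In D10 repopulated against ND retinas C8b, a component of the membrane attack complex, was higher by 2.18 ± 0.73 (adjusted p = 0.028) in the authors' deposited table. Its level was low, with a group mean of 0.098 in D10 repopulated retinas. Of 10 membrane and fluid brakes on complement other than Serping1, 1 was higher at 6 weeks (Csmd1, 0.51 ± 0.17) and 1 lower on depletion (Cd59a, -0.40 ± 0.14) in the authors' deposited tables. The paralogue C1s2 had group means of 0.14 or less and C1rb of 0.024 or less, and C1rb passed in no comparison.

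Likeness of profile over all 8 comparisons was measured against 9059 genes in the upper 60% of level. This pool held 6 of the 8 genes, since C1s1 and C2 fell below its level cut. Microglial markers of lower mean, among them Cx3cr1, Csf1r and P2ry12, were below it too and could not be named. C1qa and C1qb differed by a root mean square of 0.17 on the log2 scale, each the nearest to the other, and C1qc followed at 0.55 and 0.54. The next gene in that pool was Ctss, the lysosomal protease cathepsin S, at 1.35 from C1qa, 1.37 from C1qb and 0.84 from C1qc. Lyz2, which codes for lysozyme, followed at 2.55, 2.51 and 2.02. After these came Crybb1 for C1qa (2.64) and C1qb (2.69), and Gucy2f for C1qc (2.26). Distances of this size mark no close likeness. In D8 against ND Crybb1 stood at -4.83, where C1qa stood at 0.72. C4b was 0.14 from C1s1, whereas C4b stood 4.10 from C1qa. Outside the 8 genes, those nearest C4b were Bst2 (0.13), H2-T23 (0.17) and Slc13a4 (0.21). Those nearest C1s1, again outside the 8, were Slc13a4 (0.14), Bst2 (0.17) and Ube2l6 (0.21). C1ra stood nearest to Chil1 (0.35), Cebpd (0.39) and Gbp3 (0.44), and Serping1 to Psmb10 (0.18), Mgp (0.18) and Lgals3bp (0.19). C2 stood nearest to C1qtnf5 (0.31), Gpnmb (0.39) and Tmem176a (0.47). The 8 comparisons share samples, so these distances describe the tables and carry no test.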

How the data were processed

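Retinal poly(A) RNA libraries (stranded NEB Directional kit, paired reads on a NovaSeq, per the labels' protocols) were compared by the authors in 8 tables of 2 groups each. Each deposited table gives per gene the larger of the 2 group means, a signal whose unit is not stated, the log2 fold change, its p-value and FDR p-value, without a value per sample. Depth per sample and the spread within groups are therefore unknown. bcl2fastq and GRCm39 are named in the submitters' processing notes. The aligner, the counter and the test were not given in these sources.

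The table with D10 over D10 repopulated was read with its sign turned, so that every effect runs from the treated or diabetic group over its comparator. A gene was called at a deposited FDR p-value below 0.05. These FDR values matched a Benjamini-Hochberg adjustment over genes that have one to within 0.00049. The standard error was taken as the log2 fold change over the normal quantile of its p-value. Group means were read from values shared between tables or from the sign where the log2 fold change exceeded 0.2 in size. Over 24 checks the log2 ratio of means differed from the deposited log2 by 0.047 at most. Differences of 2 effects were tested with a normal test, variances added, and Benjamini-Hochberg adjustment over all genes. The step was tested on simulated data with 2 independent effects, so the test does not cover differences that share ND samples. The differences taken through ND were added after seeing the data.

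Named besides the 8 genes were the most significant called genes of fixed marker and pathway lists, possible read-sharing neighbours, Cx3cr1 and Csf1r, and the 3 genes nearest each by profile, among genes in the upper 60% of level without a predicted name. P2ry12, Aif1 and other called list genes were named after their values were seen. The members and lists were chosen with earlier results of these data known. Alternatives were other thresholds (0.01, 0.10, Bonferroni, a log2 size of 1), a filter on the lowest 40% of levels, names of predicted genes left out, centring on the median, and the route through ND. Python 3.11.15, numpy 2.4.6, pandas 2.3.3, scipy 1.17.1 and matplotlib 3.10.9 were used.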

Additional observations from a re-analysis of the deposited data

Results flagged for a closer look

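Computed from the authors' deposited tables, the C1qa difference between repopulated and never depleted retinas, in diabetic minus in non-diabetic mice, was -1.34 on the log2 scale (standard error 0.30, adjusted p = 0.0082), from -1.34 in D10 repopulated against D10 and 0.00 in ND repopulated against ND. It stands out because a direct test between the diabetic and the non-diabetic setting passed. From the authors' deposited tables the C1qb difference was -1.31 (standard error 0.31, adjusted p = 0.014), from -1.12 in the diabetic and 0.18 in the non-diabetic setting. In the same contrasts red blood cell genes had medians of 3.81 in D10 repopulated against D10 and -1.17 in ND repopulated against ND retinas, and D10 libraries carry titles from another run of numbers than the other 3 groups. The part of either in the difference was not tested.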

How the results depend on the processing

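No paired analysis was possible because the tables hold no values per sample, and for the same reason no replicate could be left out, no library of doubt could be set aside and no within-batch value could be had. With Bonferroni adjustment the count of called genes at 6 weeks was 2 of 8, at 8 weeks 2, and in D10 repopulated against ND retinas 2. At 8 weeks it was 3 with an adjusted p below 0.01, and 3 with a log2 size of at least 1, where the count at 10 weeks was 5. With a threshold of 0.01, 1 gene, C1qa, passed for the difference between diabetic and non-diabetic mice in repopulated against never depleted retinas. In the difference between D10 repopulated and ND repopulated retinas 2 genes were called at 0.01 and 1 with the lowest 40% of levels left out. That filter took C1ra, C1s1 and C2 out before testing, so their calls were not tested again. From the authors' deposited tables, C2 in D10 against ND missed the threshold after centring on the median of all genes (adjusted p = 0.051), and lost its call on depletion by the route through ND (adjusted p = 0.37). By that route, whose added variances overstate the error, the effects in the authors' deposited tables gave -1.12 for both C1qb and C1qc in D10 repopulated against D10 retinas, without their calls (adjusted p = 0.44 and 0.53). No value of the 8 genes reversed under centring (64 values) or the route through ND (16 values). Depth limits cannot be set, since the tables give no counts.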
